A study of Homo sapiens with 16 samples.

Results

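The genes of MHC class I antigen presentation were examined in MiaPaCa2 and PANC1, which are established lines grown from human pancreatic ductal adenocarcinomas. The set holds 9 genes, chosen by symbol in the deposited table of FPKM values: the class I heavy chain genes HLA-B, HLA-C and HLA-E, the light chain gene B2M, the peptide transporter genes TAP1 and TAP2, the tapasin gene TAPBP, and the immunoproteasome subunit genes PSMB8 and PSMB9. The count table lists 63677 Ensembl identifiers in all. The 9 symbols are carried by 59 identifiers, and exactly 9 of these, 1 for each symbol, had any count, so the choice among identifiers changed nothing. All 9 genes passed the filter on low counts in both lines.

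Each line was kept as an untreated control or treated for 24 hours with 40 nM gemcitabine, 50 µM genistein or both drugs together. Gemcitabine is a nucleoside analogue used as chemotherapy for pancreatic cancer, and genistein is a soy isoflavone. Each of the 8 groups had 2 biological replicates, labelled I and II, which gave 16 libraries of poly-A RNA. Both lines grew in medium with serum and each comes from 1 tumour, and per the study's methods the vehicle DMSO was used for every agent except gemcitabine. No separate culture dates are given, so the p-values here measure the spread between these samples.

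Class I molecules show peptides from inside the cell to CD8 T cells and to natural killer cells. The proteasome cuts proteins into peptides, and interferon exchanges 3 of its catalytic subunits for PSMB8, PSMB9 and PSMB10, which favours peptides that class I can bind. TAP1 and TAP2 together form the pump that carries peptides into the endoplasmic reticulum, tapasin holds empty class I molecules at the pump, and B2M pairs with every heavy chain. HLA-B and HLA-C are the classical, highly variable heavy chains, while HLA-E is a nearly invariant one that presents signal peptides of other class I molecules to the receptor NKG2A on natural killer cells. Tumours often lower this machinery, and interferon, NF-kappa-B and the transactivator NLRC5 are known to raise it.

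Of the 9 genes, 8 lie on the short arm of chromosome 6 within the major histocompatibility complex, between positions 30457286 and 33282061 of GRCh37, and B2M lies on chromosome 15. HLA-E is at chr6:30457286-30461971 on the plus strand, HLA-C at chr6:31236526-31239907 and HLA-B at chr6:31321649-31334844, both on the minus strand. TAP2 at chr6:32789610-32806516, PSMB8 at chr6:32808494-32812456 and TAP1 at chr6:32812986-32821593 are on the minus strand, and PSMB9 at chr6:32811913-32827628 is on the plus strand. The TAP and PSMB genes are therefore neighbours, and the models of PSMB9 and TAP1 overlap. TAPBP is at chr6:33267471-33282061 on the minus strand and B2M at chr15:45003556-45011049 on the plus strand.

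The promoters are shown because the genes are known to share elements through which interferon and NF-kappa-B act. RefSeq promoter sequences, built on GRCh38.p14, were found for 8 of the 9 genes, with none for HLA-E. The 250 bases before the RefSeq start were placed on GRCh37 by exact match. The gene positions above come from GENCODE v44, whose models can begin earlier. The stretches of HLA-B, B2M and TAPBP therefore lie inside those positions. Both strands were searched for the core of the interferon-stimulated response element, the gamma-activated site TTCNNNGAA and the kappa-B site. The stretches that hold a match are given from 5′ to 3′ on the strand of the gene, with the matching letters in capitals.
HLA-B, chr6:31325113-31325142, minus strand: cgcagcgttGGGGATTCCCCactcccctga
B2M, chr15:45003564-45003593, plus strand: actctaaGAAAAGGAAACTGAAAacgggaa
TAP1, chr6:32821593-32821622, minus strand: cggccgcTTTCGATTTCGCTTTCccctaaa
TAP2, chr6:32806555-32806584, minus strand: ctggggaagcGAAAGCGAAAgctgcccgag
TAPBP, chr6:33281856-33281882, minus strand: tttggagGAAAGTGAAAGTGAAAggag

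The response element core stood in the promoters of B2M, TAP1, TAP2 and TAPBP, and 3.02% of the 35116 promoters in the table hold it. In B2M, TAP1 and TAPBP the capitals cover 2 overlapping matches, and in TAP1 they read on the opposite strand to the gene. The kappa-B pattern matched in the HLA-B promoter alone, where its palindrome matches on both strands, and 0.367% of all promoters hold it. The gamma-activated site, held by 6.57% of all promoters, had no match in the 8 windows. The windows of HLA-C, PSMB8 and PSMB9 held none of the 3 letter patterns, which says nothing about other sites or about binding. The TAP1 stretch lies between the RefSeq starts of TAP1 and PSMB9, beyond the PSMB9 window of chr6:32821719-32821968. It also lies inside the GENCODE model of PSMB9. In all 8 windows, sites that depart from these letters, kappa-B sites among them, would have been missed.

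The libraries held between 12943482 and 31991860 counted reads (median 16059396.5). The genes described here were deeply counted, from 303 counts for PSMB9 in a MiaPaCa2 control to 24734 for B2M in a PANC1 control. Counts also leaned on GC content to an extent that varied between libraries: over all genes tested, log2 CPM changed per 10 percentage points of GC by between -0.23 and 0.29 across the 16 libraries. The MiaPaCa2 controls lay at -0.23 and -0.14, gemcitabine at 0.14 and 0.05 and co-treatment at 0.05 and 0.29, so in MiaPaCa2 this trend moved with gemcitabine. MiaPaCa2 genistein was at 0.00 and -0.16. In PANC1 the trend did not separate the treatments, with controls at 0.29 and -0.07, gemcitabine at 0.05 and -0.13, genistein at -0.07 and -0.14 and co-treatment at -0.16 and 0.23. The exons of the 9 genes range from 41.4% GC in B2M to 60.9% in HLA-C, and values corrected for GC content are therefore given beside the results they alter. Epithelial genes were present in part, with KRT8 at 369 FPKM or more and KRT18 at 373 or more in every library. KRT7 had at most 9 counts in MiaPaCa2. The mesenchymal gene VIM stood higher, at 2336 FPKM or more in MiaPaCa2 and 1398 or more in PANC1, while CDH2 had at most 1 count in MiaPaCa2. EPCAM had no count in MiaPaCa2 and at least 7.71 FPKM in PANC1, and CDH1 had at most 2 counts in MiaPaCa2 and at least 98 in PANC1. Immune cells, which carry much class I, left little trace: PTPRC and CD3E had no count in MiaPaCa2 and at most 1 in any PANC1 library. Of the 8 immune markers 6 never exceeded 1 FPKM in either line, and the sum over all 8 ran from 18.5 to 40.7 FPKM in MiaPaCa2 and from 109.1 to 222.5 in PANC1, most of it from CD68, which had at most 17 counts. Of the 3 endothelial markers 2 never exceeded 1 FPKM in MiaPaCa2 and none of the 3 did in PANC1, and the class II gene HLA-DRA had at most 2 counts in any library.

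Levels between genes were compared per length, in FPKM, in the untreated cells. B2M was by far the highest, at 1530 and 1357 FPKM in the 2 MiaPaCa2 controls and 1777 and 2059 in the 2 PANC1 controls. It exceeded 99.2% of the 16311 genes above 1 FPKM in MiaPaCa2 and 99.6% of the 17091 in PANC1. HLA-B came next in MiaPaCa2, at 300 and 311 FPKM, and stood at 99.6 and 96.3 FPKM in PANC1. HLA-C followed with 114.04 ± 2.78 FPKM (SD, n = 2) in MiaPaCa2 and with 91.7 and 80.9 in PANC1. HLA-E stood at 65.5 and 71.5 FPKM in MiaPaCa2 and 76.1 and 66.95 in PANC1. In FPKM the heavy chains were thus in the order HLA-B, HLA-C, HLA-E in both lines, with wide gaps in MiaPaCa2. In PANC1 the libraries of neighbouring heavy chains were also apart, but by less than the 2 HLA-C libraries were from each other. The order depends on the unit and on the lengths used. CPM per kilobase divides the deposited counts by merged exon lengths from GENCODE v44, which may differ from the annotation used for counting. Unit and length cannot be told apart here. In CPM per kilobase of exon it was reversed in PANC1, with 63.7 ± 4.1 (SD, n = 2) for HLA-E, 42.7 ± 4.4 for HLA-C and 24.0 ± 2.1 for HLA-B, and in MiaPaCa2 HLA-E (59.0 ± 4.3) lay above HLA-C (53.5 ± 0.70) and below HLA-B (69.8 ± 2.4).

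Among the loading and processing genes, TAP2 (55.7 and 59.8 FPKM) and TAPBP (54.1 and 54.7) lay close together in MiaPaCa2, followed by TAP1 (42.4 and 41.4), PSMB9 (38.1 and 39.8) and PSMB8 (25.6 and 24.3). In PANC1 the controls of TAP2 (80.5 and 71.2 FPKM) and TAPBP (82.1 and 63.3) overlapped, and so did those of PSMB9 (44.7 and 36.1) and TAP1 (42.2 and 38.2). PSMB8 was lowest there too, and its 36.9 and 32.05 FPKM overlapped with PSMB9. The rank of TAP2 depends on the unit and the exon lengths as well. In MiaPaCa2 its CPM per kilobase of exon was 3.47 ± 0.44 (SD, n = 2), the lowest of the 9, against 57.8 FPKM. Of the exon length of TAP2, 19.5% is shared on the same strand with a readthrough gene. Likewise 30.7% of the exon length of HLA-B lies under a pseudogene on the same strand, and 14.2% of TAP1, 17.3% of PSMB8 and 21.0% of TAPBP under genes on the opposite strand. PSMB9 shares 5.21% on its own strand. How the counting treated strand and overlaps is not given in the sources used here, so the counts of these 6 genes are less certain than those of B2M, HLA-C and HLA-E, which overlap no other gene.

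**Figure D1:**
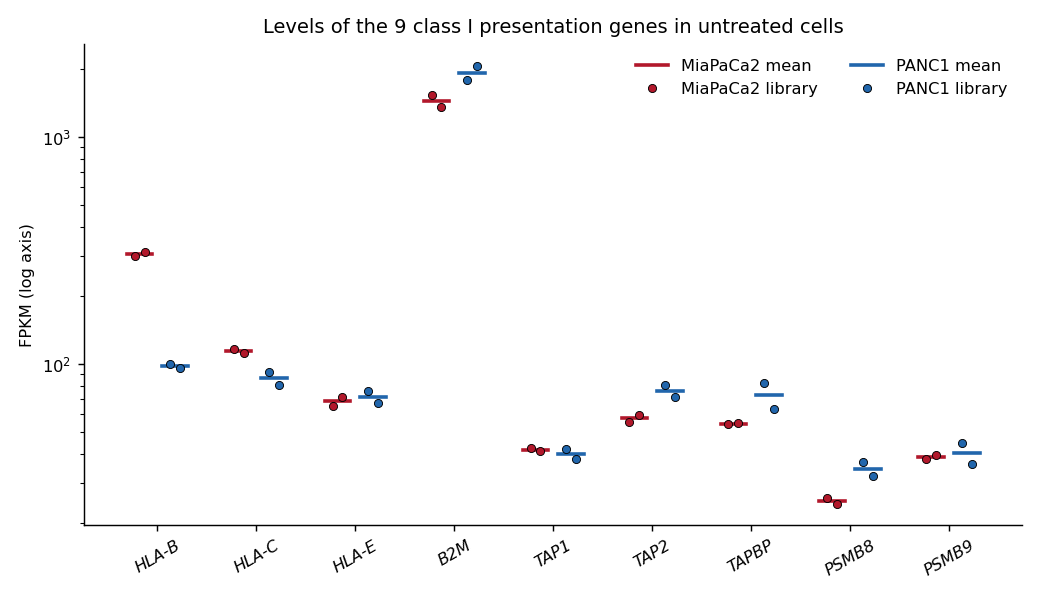
FPKM of the 9 genes in the untreated libraries, on a log axis, with a point for each library and a line at the mean of 2 (red MiaPaCa2, blue PANC1). B2M lies above 1000 FPKM in all 4 libraries, and HLA-B is the gene whose lines stand farthest apart.

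Comparing the untreated lines asks what a response starts from. HLA-B was lower in PANC1: the TMM-normalized read counts, scaled to a common library size and written CPM, were 323 and 341 in the MiaPaCa2 controls against 130 and 104.2 in PANC1, without overlap. That is 0.348-fold (95% CI 0.289 to 0.419), a log2 difference of -1.52 ± 0.12 (SE), with an adjusted p of 1.88e-07 by limma-voom with Benjamini-Hochberg adjustment. PSMB8 was higher in PANC1, at 46.0 and 37.2 CPM against 30.3 and 29.3, a log2 difference of 0.45 ± 0.12 and an adjusted p of 0.00574. B2M was higher by a log2 difference of 0.36 (adjusted p 0.00258), which misses the required 0.4. The word called is used for genes that met 3 criteria: adjusted p no higher than 0.05, a log2 fold change of 0.4 or more in either direction, and over 1 FPKM on average in the treated group, or here in either line.

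In the comparison of the lines 2 of the 9 genes were called, 1 in each direction, and 52.3% of all 17863 genes tested were called (27.9% higher and 24.3% lower in PANC1), a larger share than among the 9. The log2 differences of the 6 genes not yet named ran from -0.31 for HLA-C (adjusted p 0.125) to 0.23 for TAP2 (0.0857) and TAPBP (0.128), and TAP1 at 0.00 had a 95% CI of -0.28 to 0.28. After correction for GC content 4 genes were called: HLA-C at -0.66, B2M at 0.60, HLA-B at -1.56 and PSMB8 at 0.45. PSMB8 lost its call without the PANC1 control I (0.28, adjusted p 0.0549). The heavy chain genes are near copies of each other and differ between people. Of the 50-base windows of the reference transcripts, 2.22% in HLA-B, 5.79% in HLA-C and 5.19% in HLA-E also occur elsewhere. Another 39.7% of the HLA-B windows are shared with genes that overlap it at the same place. That sharing does not by itself give a read several alignments. Reads with several alignments were removed. For HLA-B and HLA-C a difference in RNA and a difference in how well each line's alleles align to the reference cannot be told apart.

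The main treatment comparison is gemcitabine against control in MiaPaCa2. All 3 heavy chain genes and both immunoproteasome genes rose, by 1.43-fold to 1.76-fold, and the other genes were higher by 1.13-fold to 1.18-fold without a call. Of the 9 genes 5 were called, all higher, and of all 16064 genes tested 29.6% were called, 15% higher and 14.6% lower. The median log2 fold change of the 9 genes was 0.52, and that of all genes tested was -0.01.

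HLA-B stood at 323 and 341 CPM in the MiaPaCa2 controls and at 543 and 517 CPM under gemcitabine. The groups did not overlap, and the 1.54-fold rise (95% CI 1.36 to 1.75) had an adjusted p of 0.000155 (limma-voom). HLA-C went from 136 and 139 CPM to 216 and 204 CPM. This was a rise of 1.47-fold (1.25 to 1.73, adjusted p 0.00159), again without overlap, and it fell to a log2 change of 0.24 after GC correction, below the required 0.4. HLA-E, the ligand of NKG2A, was at 168 and 187 CPM in the controls and at 306 and 320 CPM under gemcitabine. Its 1.71-fold rise (1.48 to 1.97, adjusted p 8.84e-05) was the largest of the heavy chains, and it stood at 0.57 on the log2 scale after GC correction against 0.77 before.

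PSMB9, the beta 1i subunit that replaces PSMB6, rose from 23.0 and 23.2 CPM in the controls to 43.0 and 41.5 CPM under gemcitabine. The fold was 1.76 (95% CI 1.47 to 2.11, adjusted p 0.000268), the largest of the 9 genes in this comparison. PSMB8, the beta 5i subunit that replaces PSMB5, went from 30.3 and 29.3 CPM to 42.5 and 46.2 CPM, 1.43-fold (1.21 to 1.69, adjusted p 0.00347). The 2 groups of libraries were apart for both genes. The third inducible subunit PSMB10, outside the set, had a log2 change of 0.25 (adjusted p 0.242), and the constitutive PSMB5 and PSMB6 had 0.11 and -0.02 (adjusted p 0.332 and 0.862).

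B2M (618 and 559 CPM in the controls, 672 and 763 CPM under gemcitabine) and TAP1 (115.6 and 115.7, then 142 and 141 CPM) passed the adjusted p, at 0.0446 and 0.0457, with log2 changes of 0.23 and 0.24 that miss the fold criterion. B2M, which has the lowest GC content of the set, was called after GC correction, at a log2 change of 0.48 (adjusted p 9.22e-05), and TAP1 was then at 0.09. TAP2 (33.5 and 40.3 CPM, then 44.4 and 41.6) and TAPBP (216 and 225 CPM, then 271 and 246) had 0.18 and 0.18 with adjusted p of 0.254 and 0.153. The gemcitabine libraries of each of these 4 genes lay above both controls, clearly apart for TAP1 and by little for TAP2 (41.6 over 40.3 CPM). The share of all genes that were apart in this way was not counted, so nothing is read from it.

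**Figure D2:**
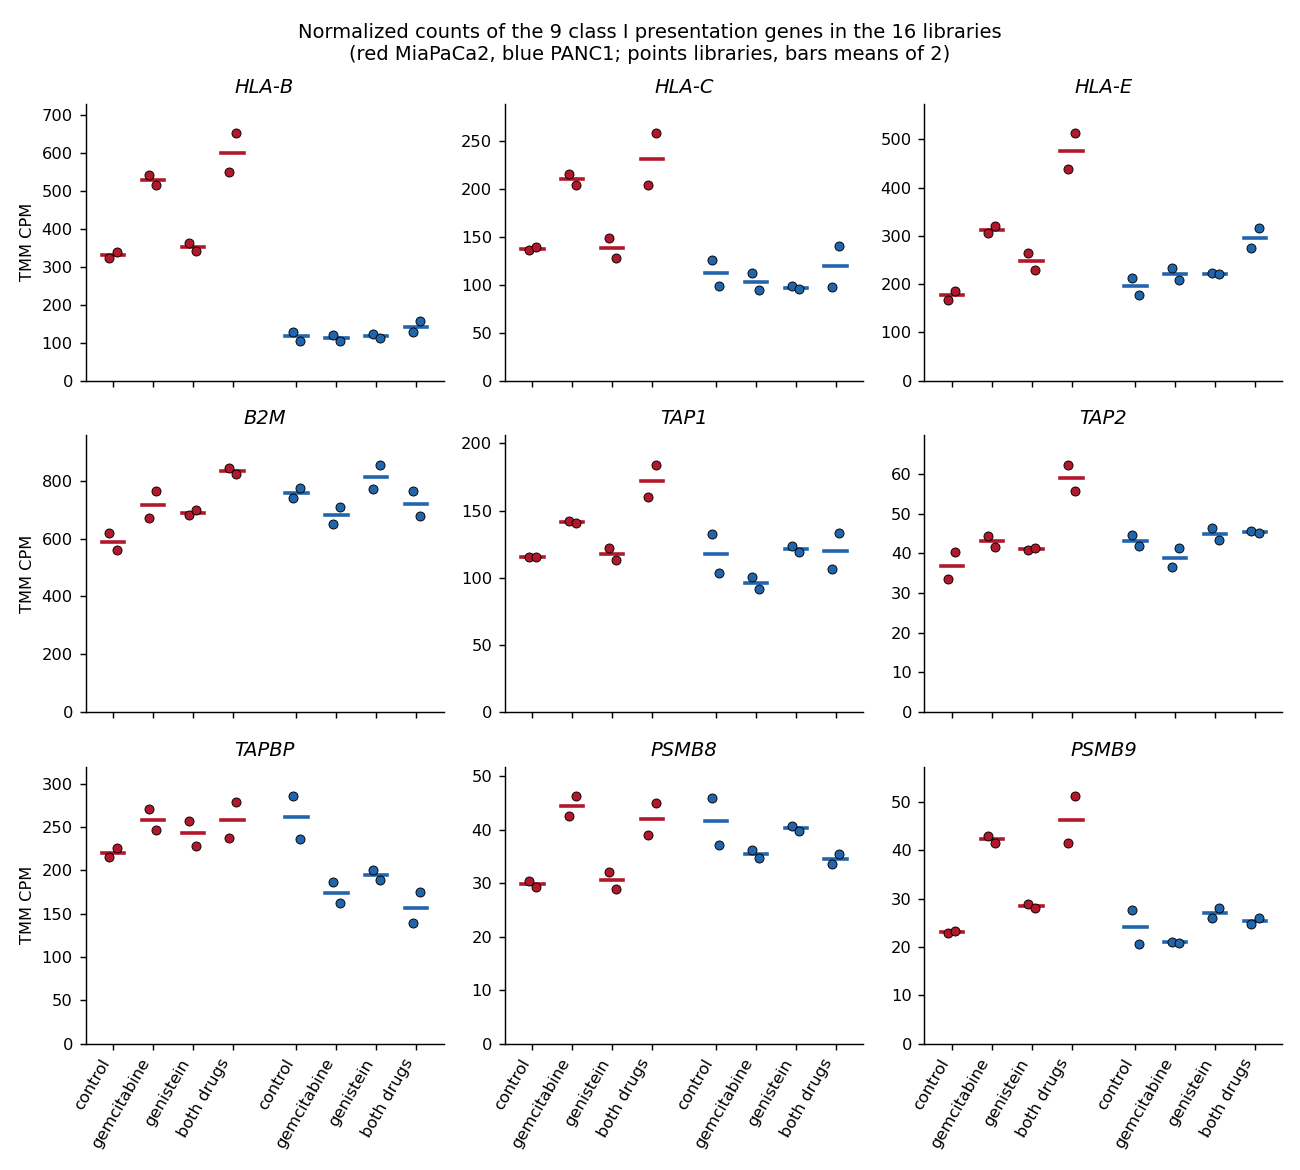
TMM-normalized CPM of each gene in every library, with a point for each library and a bar at the mean of 2, for MiaPaCa2 (red) and PANC1 (blue) and each axis starting at 0. HLA-B reaches 543 and 517 CPM under gemcitabine and 550 and 652 CPM under both drugs in MiaPaCa2, and stays between 104.2 and 157 CPM in PANC1.

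Genistein alone moved 1 of the 9 genes in MiaPaCa2, where 8.31% of all genes were called (4.18% higher and 4.13% lower). HLA-E was at 265 and 230 CPM under genistein against 168 and 187 CPM in the controls, without overlap, a rise of 1.37-fold (95% CI 1.19 to 1.59) with an adjusted p of 0.0129 in limma-voom. The call was lost after GC correction (log2 change 0.36) and when either control or genistein I was left out (adjusted p 0.163, 0.0573 and 0.0962). PSMB9 came next, at 28.9 and 28.1 CPM against 23.0 and 23.2, a log2 change of 0.29 with a 95% CI of 0.02 to 0.56 and an adjusted p of 0.158. B2M was at 0.21 (0.03 to 0.39, adjusted p 0.119). For HLA-B, HLA-C, TAP1 and PSMB8 the log2 changes lay between -0.02 and 0.08, and the 95% CIs reached at most 0.26 in either direction.

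With both drugs 8 of the 9 genes rose in MiaPaCa2, all except TAPBP. Here 40.5% of all genes were called, 20.3% higher and 20.2% lower. The median log2 change of the 9 genes was 0.63, against -0.01 over all genes. HLA-E changed most, at 438 and 512 CPM under both drugs, 2.58-fold (95% CI 2.23 to 2.97, adjusted p 4.37e-07). PSMB9 was at 41.5 and 51.2 CPM, 1.92-fold (1.60 to 2.30, adjusted p 4.14e-05). These were followed by HLA-B at 550 and 652 CPM (1.74-fold), HLA-C at 204 and 258 CPM (1.60-fold) and TAP2 at 62.3 and 55.8 CPM (1.54-fold). The transporter gene TAP1 was at 160 and 184 CPM (1.42-fold), B2M at 846 and 823 CPM (1.36-fold) and PSMB8 at 38.9 and 45.0 CPM (1.35-fold). The treated libraries lay above both controls for all 9 genes, the uncalled TAPBP included. How many of all genes were apart in this way was not counted, so the count of 9 has no background to be read against. TAPBP had 237 and 279 CPM against 216 and 225, a log2 change of 0.16 with a 95% CI of -0.04 to 0.37.

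Among the MiaPaCa2 libraries the GC trend was steepest in co-treatment II, at 0.29. After GC correction 5 genes remained called (HLA-E at 1.10, PSMB9 at 0.87, B2M at 0.76, TAP2 at 0.67 and HLA-B at 0.56), and HLA-C, TAP1 and PSMB8 were at 0.33, 0.28 and 0.27, with adjusted p of 0.000720, 0.00202 and 0.0187 and too small a fold. PSMB8 lost its call without control II and without co-treatment II (0.40 and 0.35), and B2M without control II (0.36).

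What genistein adds to gemcitabine in MiaPaCa2 is seen between the co-treated and the gemcitabine libraries, where 5.88% of all genes were called (4.05% higher and 1.83% lower). HLA-E rose further, from 306 and 320 CPM to 438 and 512 CPM, 1.51-fold (95% CI 1.32 to 1.73, adjusted p 0.00289). TAP2 rose from 44.4 and 41.6 to 62.3 and 55.8 CPM, 1.36-fold (1.15 to 1.62, adjusted p 0.0348). Neither gene overlapped between the groups, and these 2 were the only calls among the 9. Without gemcitabine I both calls were lost (adjusted p 0.0589 and 0.169), and that of TAP2 also without gemcitabine II or co-treatment I (0.218 and 0.0617). The 2 comparisons of the combination, with control and with gemcitabine, share the co-treated libraries.

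The interaction of the drugs, which is the response to both minus the sum of the responses to each, was tested directly. None of the 9 genes passed in MiaPaCa2, where 0.0249% of all genes did (0.00623% above and 0.0187% below 0), and none had an unadjusted p under 0.05 in limma-voom. The tests of edgeR and DESeq2 called 0 as well. The log2 interaction of HLA-E was 0.13 (95% CI -0.16 to 0.43), and the others lay between -0.17 for PSMB9 and 0.29 for TAP2 (-0.07 to 0.65).

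In PANC1 gemcitabine called 1 gene of the set, TAPBP, and it fell, from 286 and 237 CPM in the controls to 186 and 162 CPM. The groups did not overlap, the fold was 0.693 (95% CI 0.570 to 0.842), and the adjusted p was 0.0384 by limma-voom, where 7.52% of all genes were called, 4.49% higher and 3.03% lower. It was lost when control I, gemcitabine I or gemcitabine II was left out (adjusted p 0.0981, 0.139 and 0.280), and it held after GC correction (-0.45, adjusted p 0.00168). With scaling by library size alone TAPBP was at -0.42 with an adjusted p of 0.0533. That scaling moves the median of all genes from 0.03 to 0.14 and the share of higher genes among all calls from 59.7% to 78.6%.

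For the other 8 genes under gemcitabine in PANC1 the log2 changes ran from -0.22 for TAP1 (95% CI -0.54 to 0.09) to 0.23 for HLA-E (-0.02 to 0.47). The gemcitabine libraries of B2M, TAP1, TAP2 and PSMB8 lay below both controls, without a call. How common this was among all genes was not counted. After GC correction HLA-E was at 0.35 (adjusted p 0.00455 by limma-voom) and B2M at -0.24 (0.0233), both with too small a fold for a call. HLA-B was at 130 and 104.2 CPM in the controls and 119 and 105.5 CPM under gemcitabine, a log2 change of 0.00 (-0.30 to 0.30). PSMB9 was at 27.6 and 20.6 CPM and then at 21.1 and 20.9, -0.13 (-0.47 to 0.22). The controls of PSMB9 and HLA-B spread widely here, and control I had the GC trend of 0.29 against -0.07 in control II. Over all genes the PANC1 control pair had a chi-square per degree of freedom of 35.2, against 2.86 to 21.6 in the other 7 groups. That value is taken on raw counts and grows with depth. The PANC1 controls held 21889823 and 31991860 counted reads, so it does not rank the pairs by their spread.

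Genistein alone called none of the 9 genes in PANC1, where 0.0591% of all genes were called, each of them higher. By limma-voom 1 of the 9, TAPBP, had an unadjusted p under 0.05, with a log2 change of -0.37 (95% CI -0.66 to -0.08, adjusted p 0.184) from 286 and 237 to 200 and 189 CPM, and edgeR and DESeq2 called 0. After GC correction TAPBP was called at -0.40 (adjusted p 0.0122). HLA-E was at 222 and 221 CPM against 213 and 178, a change of 0.23 (-0.02 to 0.49). Its GC-corrected change was 0.33 (adjusted p 0.0210 by limma-voom), too small a fold for a call.

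With both drugs in PANC1 HLA-E rose and TAPBP fell, and 17.1% of all genes were called (10.2% higher and 6.9% lower). HLA-E reached 274 and 317 CPM against 213 and 178 CPM in the controls, 1.55-fold (95% CI 1.31 to 1.83, adjusted p 0.00625). TAPBP was at 140 and 175 CPM against 286 and 237 CPM, 0.615-fold (0.503 to 0.752, adjusted p 0.00837). Both pairs of groups were apart, and both calls were lost in a model of only the 4 libraries compared (adjusted p 0.0700 and 0.0726). That of TAPBP was also lost on log2(FPKM + 1) (-0.49, adjusted p 0.199). HLA-B was at 128 and 157 CPM, a log2 change of 0.32 (0.02 to 0.62, adjusted p 0.123 by limma-voom). It was called with scaling by library size alone (0.48, adjusted p 0.0246 by limma-voom) and on log2(FPKM + 1) (0.45, adjusted p 0.0211 by limma-trend). The remaining 6 genes lay between -0.22 for PSMB8 and 0.13 for PSMB9. Among these, the co-treated libraries lay above both controls for TAP2 and below both for PSMB8.

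Genistein added to gemcitabine in PANC1 gave no call, where 0.0177% of all genes were called (0.0118% higher and 0.00591% lower). HLA-E, at 233 and 208 CPM with gemcitabine and 274 and 317 CPM with both, had a log2 change of 0.40 (95% CI 0.16 to 0.65) and an adjusted p of 0.186, and 2 of the 9 genes, HLA-E and HLA-B (0.32), had an unadjusted p under 0.05 (limma-voom). After GC correction HLA-E was at 0.32 (adjusted p 0.0204 by limma-voom) and TAPBP at -0.27 (0.0461), both with too small a fold for a call. The interaction was called for 0 of all 16909 genes tested in PANC1, 0% of them, and for none of the 9 was its unadjusted p under 0.05. Neither edgeR nor DESeq2 called any of the 9 in these comparisons.

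**Figure D3:**
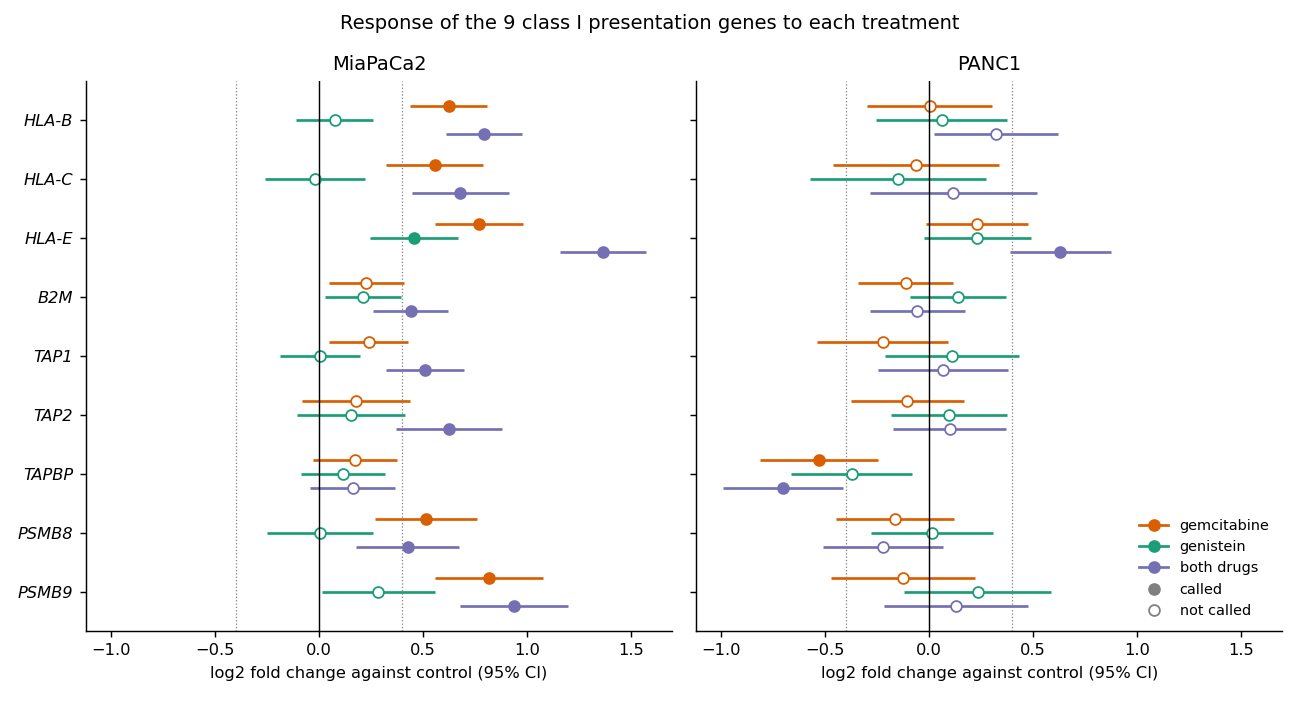
Log2 fold change of each gene against the control of its line under gemcitabine (orange), genistein (green) and both drugs (purple), with 95% CI, filled where called, dotted lines at -0.4 and 0.4. In MiaPaCa2 the values for both drugs run from 0.16 for TAPBP to 1.36 for HLA-E, and in PANC1 from -0.70 for TAPBP to 0.63 for HLA-E.

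Whether the gemcitabine response differs between the lines was tested in a model of all 16 libraries, with the response in PANC1 minus that in MiaPaCa2 judged by the adjusted p alone. It was negative for all 9 genes, with a median of -0.72 against -0.08 over all genes, and 6 of the 9 passed, where 15.3% of all 17863 genes did, 6.21% above and 9.06% below 0. PSMB9 differed most, by -1.04 (95% CI -1.48 to -0.60, adjusted p 0.00611). TAPBP (-0.80, 0.0121), PSMB8 (-0.78, 0.0115), HLA-B (-0.72, 0.0175), HLA-E (-0.64, 0.0256) and B2M (-0.44, 0.0332) also passed. HLA-C (-0.72, 0.0584), TAP1 (-0.56, 0.0549) and TAP2 (-0.38, 0.123) did not, although their 95% CIs lay below 0.

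The count of 6 depends on single libraries. It was 1 without MiaPaCa2 control I or without PANC1 gemcitabine II, and 3 without MiaPaCa2 control II, gemcitabine I or gemcitabine II, while PSMB9 passed in every case. The difference remained negative for the 6 genes under every alternative run. After GC correction all 9 genes passed, with 26.4% of all genes passing then, and the values ran from -0.26 for HLA-C to -1.02 for PSMB9. HLA-E was then at -0.31 in place of -0.64 and B2M at -0.80 in place of -0.44. Of the 19 alternatives, HLA-E passed in 10 and B2M in 9. For genistein the difference between the lines passed for none of the 9 genes in limma-voom, where 0.0336% of all genes did (0.0056% above and 0.028% below 0). Only TAPBP had an unadjusted p under 0.05, at -0.54 (adjusted p 0.314), and edgeR and DESeq2 called 0.

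**Figure D4:**
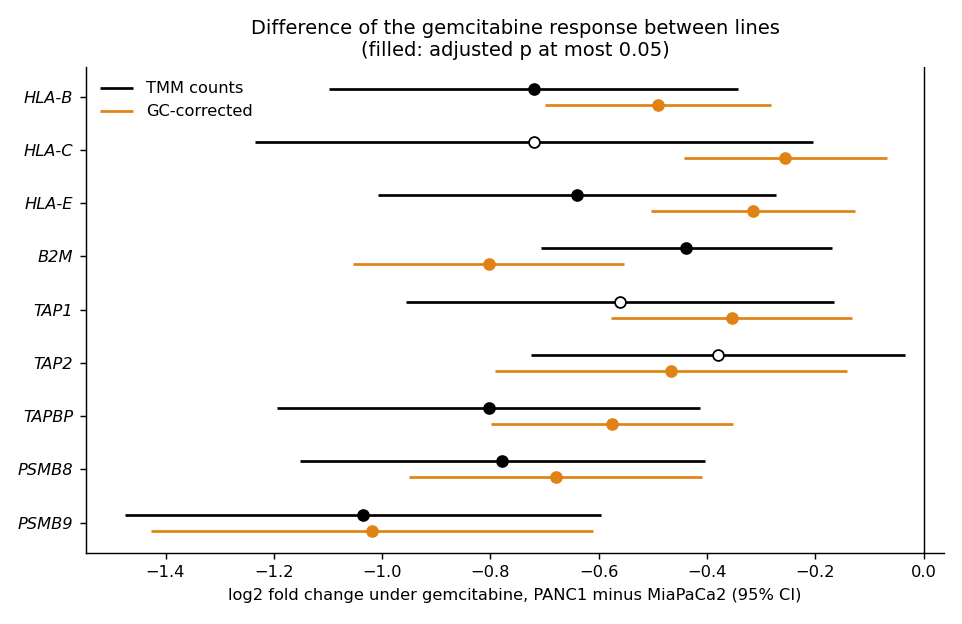
Log2 fold change under gemcitabine in PANC1 minus that in MiaPaCa2, with 95% CI, from TMM-normalized counts (black) and after correction for GC content (orange), filled where the adjusted p is at most 0.05. All values lie below 0, from -0.38 for TAP2 to -1.04 for PSMB9 before the correction.

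The other genes of the pathway were taken from lists of regulators, interferon receptors and kinases, loading factors, proteasome partners and other class I genes. Among the regulators, 3 of the 15 tested rose under gemcitabine in MiaPaCa2 and 12 were not called, beside 29.6% of all genes called and 15% called higher, so the regulators as a list stood near the background. The median log2 change of the 15 was 0.13. The 3 were NLRC5, the class I transactivator, with a log2 change of 1.06 (adjusted p 7.51e-05), STAT2, which carries the type I interferon signal, with 0.79 (6.04e-05), and IRF1, an interferon-induced activator of class I promoters, with 0.58 (0.000631), all by limma-voom. NLRC5 had 253 and 219 counts in the controls and 620 and 507 counts under gemcitabine. The class II transactivator CIITA had at most 2 counts in any library and was not tested.

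In PANC1 NLRC5 was low, with 2.67 and 2.61 FPKM in the controls against 7.96 and 5.51 in MiaPaCa2, and its change under gemcitabine was -0.02 (adjusted p 0.954). Of the 15 regulators 6 passed the test of the difference between the lines' responses, 4 of them lower in PANC1, beside 15.3% of all genes passing and 9.06% lower. It passed for NLRC5 (-1.17, adjusted p 0.00468) and STAT2 (-0.98, 0.000879), and not for IRF1 (-0.49, 0.124). In PANC1, where 7.52% of all genes were called, gemcitabine called 2 of the 15 regulators, EZH2, a repressive histone methyltransferase, at 0.75 (adjusted p 0.0302) and STAT3 at -0.46 (0.0163).

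Of the 9 interferon receptors and kinases 3 rose under gemcitabine in MiaPaCa2, beside 15% of all genes: the feedback inhibitors SOCS1 (1.09, adjusted p 0.0457) and SOCS3 (0.97, 0.000590) and the kinase TYK2 (0.55, 0.00277). SOCS1 rests on 9 to 50 counts per MiaPaCa2 library. In PANC1 none of the 9 was called in limma-voom, and their median log2 change was -0.03. Both SOCS genes are themselves induced by cytokine signals. The difference between the lines passed for 3 of the 9, each lower in PANC1, beside 15.3% of all genes. It passed for SOCS3 (-0.79, adjusted p 0.0339) and not for SOCS1 (-1.44, 0.0839) or TYK2 (-0.50, 0.181).

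Among 6 other class I heavy chain or related genes 3 rose under gemcitabine in MiaPaCa2, beside 15% of all genes. MICB, a stress-induced ligand of the receptor NKG2D, had a log2 change of 0.99 (adjusted p 0.000422), MR1, which presents microbial metabolites, had 0.97 (2.27e-05), and FCGRT, the neonatal Fc receptor, had 0.41 (0.0364). The median of the 6 was 0.54. HLA-F was at 0.67 (0.0926), on 23 to 64 counts per MiaPaCa2 library. MR1 was the gene of this list that gemcitabine also called in PANC1, at 1.06 (adjusted p 0.0214), and its responses in the lines differed by -0.01 (adjusted p 0.978). MICB, at 0.11 in PANC1 (0.533), differed between the lines by -0.99 (0.00613).

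Of the 7 loading and trimming genes 2 were called under gemcitabine in MiaPaCa2, near the 29.6% of all genes. TAPBPL, a tapasin relative that edits peptides, rose (0.42, adjusted p 0.0243), and the chaperone CANX fell (-0.41, 0.00265). The trimming peptidases ERAP1 and ERAP2 were at 0.21 and -0.08 (adjusted p 0.118 and 0.596). In PANC1 the 7 genes lay between -0.14 and 0.05. The 8 proteasome partners lay between -0.14 and 0.25 in MiaPaCa2 and between -0.30 and 0.31 in PANC1, without a call by limma-voom in either.

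**Figure D5:**
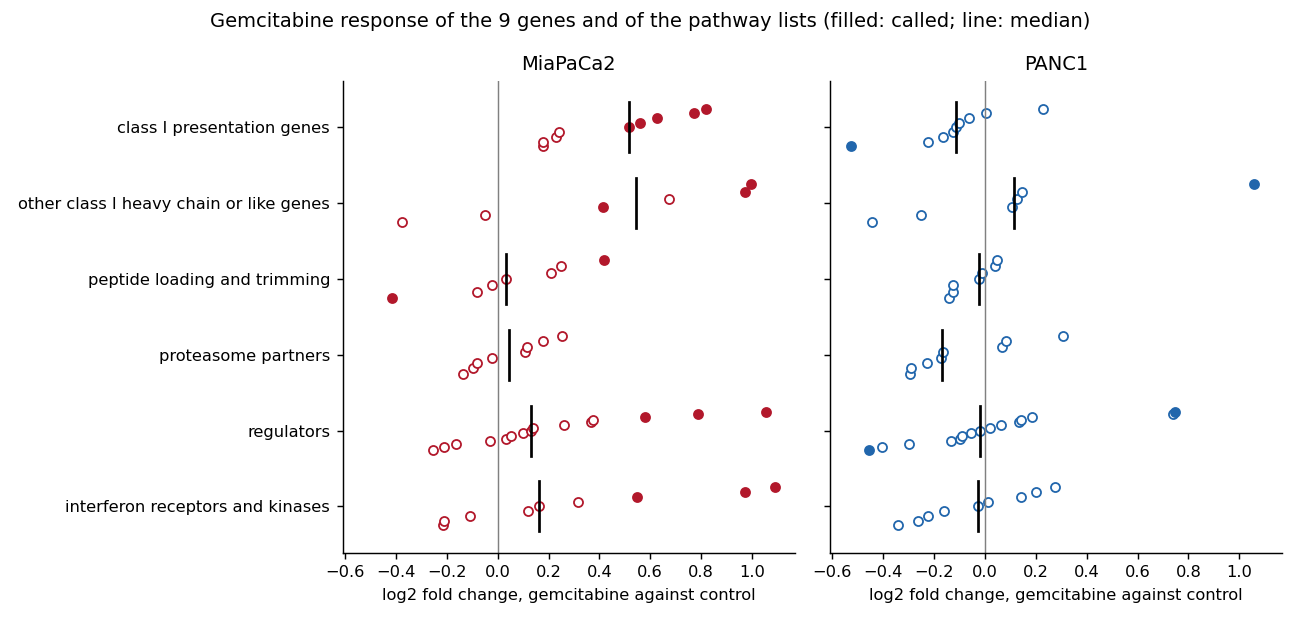
Log2 fold change under gemcitabine of the 9 class I presentation genes and of the 5 lists in MiaPaCa2 (red) and PANC1 (blue), with a point for each gene, filled where called, and a line at the median. In MiaPaCa2 the median of the 9 genes is 0.52 and that of the 8 proteasome partners 0.04.

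With both drugs the same lists held more calls in MiaPaCa2, beside the 40.5% of all genes. Of the 15 regulators 4 rose, led by NLRC5 at 1.24, STAT2 at 1.07 and IRF1 at 0.66, and 2 fell (RFXAP at -0.54 and CREB1 at -0.45). Of the other class I genes 4 of 6 rose, led by MICB at 1.31, MR1 at 1.05 and HLA-F at 0.80. The loading list had CALR, the chaperone calreticulin, at 0.53 and TAPBPL at 0.50 as rises and CANX at -0.47 as a fall. SOCS1 (1.76), SOCS3 (1.17) and TYK2 (0.62) rose again, and of the proteasome partners the assembly factor POMP fell (-0.42). These comparisons share their control libraries with those of gemcitabine alone.

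The untreated lines differed in the regulators as well. PANC1 had less NLRC5 (log2 difference -1.35), IRF1 (-1.42) and the class II and class I promoter factor RFXAP (-2.23), and more RELA, an NF-kappa-B subunit (1.66), and SOCS3 (1.92), all called. PSMB10 was lower by -2.35 and the proteasome activator PSME1 by -1.64, and the 8 proteasome partners had 4 calls, all lower in PANC1. Since 52.3% of all genes were called between the lines, such differences were common.

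Across the 8 libraries of a line the 9 genes moved together to different degrees. Among their 36 pairs in MiaPaCa2 the Pearson correlation of log2 CPM ran from 0.49 to 0.99 with a median of 0.82. In PANC1 it ran from -0.58 to 0.88, with a median of 0.37 and 29 pairs above 0. The points share libraries, treatment and the GC trend, and no p is given. The genes outside the set whose log2 CPM followed the mean of the 9 standardized genes most closely in both lines, among 13330 genes, were CALCOCO1, MSRB1, SIRT3, PEX6 and SNPH, with mean correlations of 0.97 to 0.96 over 8 libraries per line. Their exons hold 51.7% to 61.7% GC. Of the 9 genes themselves TAP1 lay closest to that mean (0.98) and B2M farthest (0.47). Each of the 9 is part of the mean, which raises its own value, so these values cannot be set beside those of outside genes. In PANC1 alone they ran from 0.09 for B2M to 0.98 for TAP1.

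By the deposited isoform FPKM, 1 transcript model carried most of HLA-E, at 98.3% of the gene's sum in the median MiaPaCa2 library and 98.6% in PANC1. PSMB8 was similar in MiaPaCa2 (92.2%), and less so in PANC1 (81.0%). The leading model of B2M held 52.6% and 54.8%, and that of TAP2 47.4% and 47.3%. For HLA-B the leading model ranged from 51.6% to 69.9% among the MiaPaCa2 libraries and from 40.0% to 83.3% in PANC1. That of HLA-C ranged from 66.9% to 97.2% and from 14.9% to 95.6%. In PANC1 the ranges were also wide for TAP1 (47.0% to 86.1%), PSMB9 (62.1% to 99.7%) and TAPBP (54.4% to 90.3%). The isoform values of these genes varied too much between libraries to be compared.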

How the data were processed

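RNA from 16 libraries of 2 cell lines was measured by poly-A sequencing with 50-base single reads. The authors mapped reads to GRCh37 with TopHat2 2.0.4, removed reads with multiple alignments with Picard 1.29, and deposited raw counts per gene from HTSeq 0.6.1, versions that the submitters' processing notes also name. The authors also deposited FPKM per gene and per isoform, made with Cufflinks 2.1.1, which divides by length and by library size. The annotation release, and whether reads were counted by strand, are not given in the sources used here. Samples were grouped by their labels.

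Counts were compared with limma-voom (limma 3.58.1, R 4.3.3, the study's method) after TMM normalization and filterByExpr in edgeR 4.0.16, with Benjamini-Hochberg adjustment over all genes tested. The 8 libraries of a line shared 1 model (16064 genes in MiaPaCa2, 16909 in PANC1), and all 16 entered comparisons between lines (17863 genes). CIs are 95% and cover the spread between 2 replicates per group, which limma shares across genes. Replicate pairs differed by more than sampling noise (chi-square per degree of freedom of 2.86 or more) and counted as separate samples. The GC correction removed a loess (span 0.3, degree 1) of log2 CPM on exon GC content from each library, with exons from GENCODE v44 lifted to GRCh37. Simulated counts with 200 changed genes were used to test the fits. Alternatives were edgeR's quasi-likelihood test, DESeq2 1.42.0, its size factors or library size alone, log2(FPKM + 1) with limma-trend, tests without the low-count filter, fewer or more libraries per model, the replicate label as a block, the GC correction with and without the block, other thresholds, and each replicate left out in turn. All 9 genes are named, and other genes come from 5 pathway lists, named by size of change among those called plus a fixed few, or by likeness to the mean of the 9. The genes and lists were chosen with earlier results of these data known. Protein sequences were not analysed here, and some list genes are not reported here.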

Additional observations from a re-analysis of the deposited data

Results flagged for a closer look

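The response to gemcitabine differed between PANC1 and MiaPaCa2 for 6 of the 9 genes by an interaction term in limma-voom over all 16 libraries, and each was lower in PANC1. On the log2 scale the difference was -0.72 for HLA-B, -0.64 for HLA-E, -0.44 for B2M, -0.80 for TAPBP, -0.78 for PSMB8 and -1.04 for PSMB9. After correction for GC content HLA-E was at -0.31 and B2M at -0.80. With 2 replicates per group, the gap of a single library from its group was not tested.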

How the results depend on the processing

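All 27 called values of single genes kept their direction under every alternative run. They were chosen by being called in these data, and alternatives that change only a threshold keep the same fold change. Of the 90 values not called, 44 changed sign under some alternative. Counts of called genes moved by more than 1.5 times as follows. For both drugs in MiaPaCa2 the 8 calls became 5 with the GC correction, with or without the replicate block. For genistein in MiaPaCa2 the 1 call became 0 at an adjusted p of at most 0.01, on log2(FPKM + 1), with the GC correction with or without the block, and with all 16 libraries in 1 model. For genistein added to gemcitabine the 2 calls became 1 at the stricter p, with library size alone, without the low-count filter or with the replicate block, and 0 on log2(FPKM + 1). For gemcitabine in PANC1 the 1 call became 0 at the stricter p, with library size alone, on log2(FPKM + 1), with the replicate block and with only the libraries compared, and for both drugs in PANC1 the 2 became 0 with only the libraries compared. With the GC correction, with or without the block, genistein in PANC1 went from 0 to 1 and the untreated lines from 2 to 4 (also 4 on log2(FPKM + 1)), and the genistein response between lines from 0 to 1 with the correction alone. For the gemcitabine response between lines the 6 became 1 at the stricter p and 3 on log2(FPKM + 1), and with the replicate block 4. The cause of these moves was not tested.

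Leaving out 1 library gave 6 to 8 calls for both drugs, 5 for gemcitabine, 0 to 2 for genistein added and 0 to 1 for genistein in MiaPaCa2. It gave 0 to 1 for gemcitabine and 2 for both drugs in PANC1, 2 for the untreated lines and 1 to 8 for the gemcitabine response between lines, with 0 in the other comparisons. A group left with 1 library is assumed to vary like the others. Scaling by library size alone moved the share of higher genes among all calls from 50.6% to 66.5% for gemcitabine in MiaPaCa2 and from 59.7% to 79.9% for both drugs in PANC1, and the median of all genes from -0.01 to 0.09 and from 0.01 to 0.17. Replicate labels did not pair the samples, with median correlations of same-numbered deviations of -0.09 in MiaPaCa2 and 0.01 in PANC1, so a call lost with the block is not read as a weaker effect. Over all genes, the GC correction moved the calls from 1272 to 2987 for gemcitabine, from 10 to 1222 for genistein, from 2897 to 4835 for both drugs and from 3 to 1192 for genistein added in PANC1, from 945 to 1547 for genistein added and from 4 to 96 for the interaction in MiaPaCa2, and from 2728 to 4613 and from 6 to 388 for the gemcitabine and genistein responses between lines. With the correction and the block these were 2743, 778, 4567 and 727 in PANC1, 1426 and 28 in MiaPaCa2, and 214 for the genistein response. With the replicate block alone, gemcitabine in PANC1 had 442, genistein added in MiaPaCa2 617 and the gemcitabine response 1516, and 0 were left for genistein and genistein added in PANC1, the MiaPaCa2 interaction and the genistein response. On log2(FPKM + 1) gemcitabine and genistein in MiaPaCa2 had 3129 and 186 (4747 and 1335 otherwise), and genistein added 59, with 593 for gemcitabine and 3 for genistein in PANC1, 0 for the MiaPaCa2 interaction, and 1643 and 3 for the gemcitabine and genistein responses. At an adjusted p of at most 0.01 genistein and genistein added in MiaPaCa2 had 419 and 353 and the interaction 2, gemcitabine and both drugs in PANC1 had 269 and 1162, with 0 for genistein and genistein added, and the responses had 820 and 0. With all 16 libraries in 1 model genistein and genistein added had 588 and 492 in MiaPaCa2 and 715 and 485 in PANC1, and gemcitabine in PANC1 had 2409. With only the libraries compared, gemcitabine, both drugs, genistein and genistein added in PANC1 had 470, 574, 362 and 0, and the genistein response 1, as without the low-count filter. DESeq2 called 739 and 208 for genistein and genistein added in PANC1, 34 and 4 for the interactions in MiaPaCa2 and PANC1 and 186 for the genistein response, where edgeR called 19. With DESeq2 size factors the MiaPaCa2 interaction had 7 and genistein in PANC1 3, with library size alone the latter had 18, and the PANC1 interaction had 2 with the GC correction (0 otherwise).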
